A study of Mus musculus with 6 samples.

Results

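The 39 genes described here encode the pyruvate dehydrogenase complex, pyruvate carboxylase, the tricarboxylic acid (TCA) cycle and mitochondrial beta-oxidation. They were chosen by function, as named enzymes or subunits of these steps, out of 24984 genes listed, with earlier results of these data known. They were measured by bulk RNA sequencing of mouse inguinal white adipose tissue, which is subcutaneous fat, in 3 Mpst knockout and 3 wild-type libraries. All 6 libraries came from tissue under a high-fat diet, and genotype is the difference that the labels give. The labels do not say whether the deletion covers the whole body or which part of the gene it removes, nor the strain, the sex, the age, the length of the diet or whether each library is a separate animal, so the p-values cover the spread among these libraries, which may be technical. MPST is a sulfurtransferase of mitochondria and cytosol that releases hydrogen sulfide from 3-mercaptopyruvate. The knockout libraries held 3, 10 and 9 reads of Mpst, against 1358, 1394 and 1624 in the wild-type libraries.

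Pyruvate enters the mitochondrial matrix and is turned into acetyl-CoA by pyruvate dehydrogenase, or into oxaloacetate by pyruvate carboxylase. The TCA cycle oxidises acetyl-CoA and hands electrons to the respiratory chain as NADH and, through succinate dehydrogenase, as ubiquinol. Fatty acids enter as carnitine esters and are shortened by the beta-oxidation spiral, whose acyl-CoA dehydrogenases pass electrons to ubiquinone through the electron transfer flavoprotein. In white adipocytes the same matrix enzymes also supply citrate for fatty acid synthesis and oxaloacetate for glycerol synthesis.

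Of the 39 genes, 38 passed the low-count filter, and Cpt1b did not. Dlat, the acetyltransferase core of pyruvate dehydrogenase, and Cpt1a, the gatekeeper of fatty acid entry, rose in knockout tissue, by 1.53-fold and 1.70-fold. No member fell at the threshold used (edgeR's quasi-likelihood test, Benjamini-Hochberg adjusted p under 0.05). The 2 calls make up 5.26% of the tested members, against 4.76% of all 14065 tested genes called higher and 2.65% called lower, 7.41% in all, so the number of calls among the members was close to that of any genes. At an unadjusted p under 0.05, 5 members were higher and 12 lower (13.2% and 31.6%), against 14.9% and 12.7% of all tested genes. DESeq2 called the same 2 members higher, against 7.59% of all genes, and 3 lower (Sdhb, Acaa2 and Eci1), against 6.32% of all genes. With limma-voom no member was lower, against 2.66% of all genes.

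The median log2 fold change of the 38 members, knockout over wild type, was −0.20, against 0.0052 over all tested genes. It was below 0 in 27 of 38 members (71.1%), against 49.5% of all genes. The 3 knockout libraries all lay below the 3 wild-type libraries for 13 members (34.2%, against 15.5% of all genes) and all above them for 5 (13.2%, against 17.8% of all genes). In bulk tissue, fewer cells of a type and less RNA per cell cannot be told apart. When trends with GC content and exon length were removed from each library before the fit, the median was −0.08 and the 2 calls held, with an adjusted p of 0.0428 for Dlat and 0.0361 for Cpt1a.

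**Figure D1:**
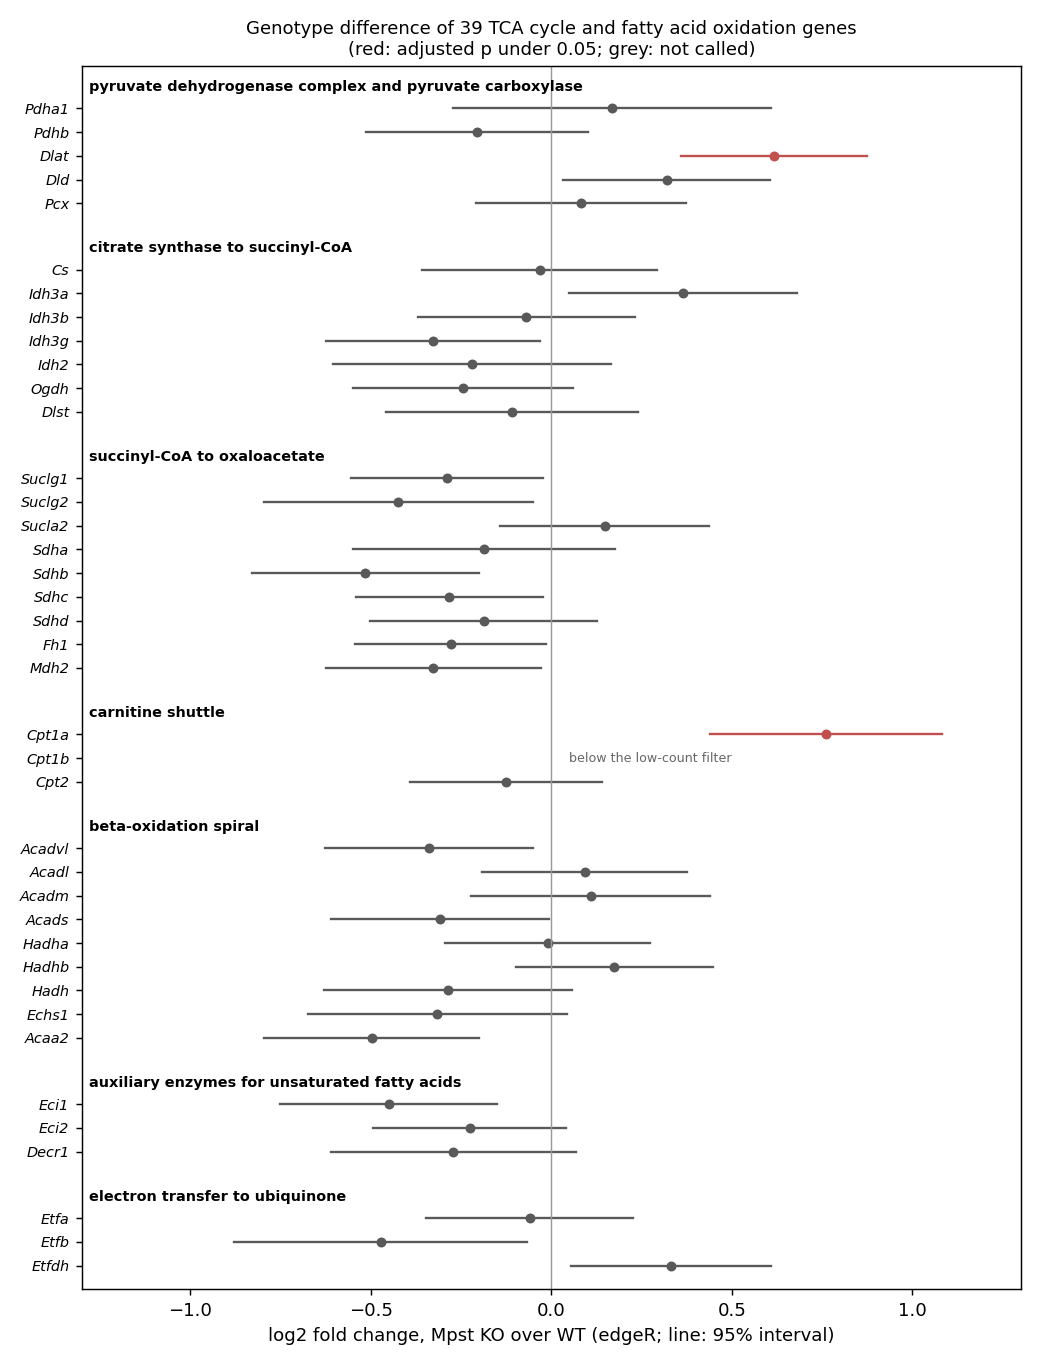
Log2 fold change, Mpst knockout over wild type, of each member by step, with its 95% interval from edgeR (n = 3 libraries per genotype). Dlat and Cpt1a, in red, were called at an adjusted p under 0.05, the points from succinyl-CoA to oxaloacetate lie left of 0 except Sucla2, and Cpt1b was not tested.

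The promoters of Dlat and Cpt1a are shown because these are the members called, that of Sdhb because its p was the smallest of the TCA cycle genes that were lower, and that of Hadhb because it faces that of Hadha. Each covers 250 bases before and 50 bases after the RefSeq start site on GRCm38.p6, read along the gene. Capitals mark the searched motifs on either strand: the NRF1 core (GCATGCGC), the GABPA site (ACCGGAAG), the GC box (GGGCGG) and the CCAAT box (CCAAT), so that matches on the opposite strand appear as reverse complements.
Dlat, chr9:50659731-50660030, minus strand: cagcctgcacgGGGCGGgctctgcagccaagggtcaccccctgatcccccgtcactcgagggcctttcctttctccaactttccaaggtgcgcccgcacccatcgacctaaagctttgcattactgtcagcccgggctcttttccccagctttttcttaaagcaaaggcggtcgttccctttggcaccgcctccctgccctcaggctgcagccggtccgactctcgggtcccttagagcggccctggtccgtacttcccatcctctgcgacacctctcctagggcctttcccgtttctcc
Cpt1a, chr19:3323051-3323350, plus strand: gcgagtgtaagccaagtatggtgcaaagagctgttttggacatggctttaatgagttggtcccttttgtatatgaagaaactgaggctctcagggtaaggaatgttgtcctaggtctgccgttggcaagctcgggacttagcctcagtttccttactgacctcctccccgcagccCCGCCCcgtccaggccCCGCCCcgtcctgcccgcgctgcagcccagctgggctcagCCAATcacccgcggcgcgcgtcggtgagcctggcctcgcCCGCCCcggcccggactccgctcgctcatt
Sdhb, chr4:140961021-140961320, plus strand: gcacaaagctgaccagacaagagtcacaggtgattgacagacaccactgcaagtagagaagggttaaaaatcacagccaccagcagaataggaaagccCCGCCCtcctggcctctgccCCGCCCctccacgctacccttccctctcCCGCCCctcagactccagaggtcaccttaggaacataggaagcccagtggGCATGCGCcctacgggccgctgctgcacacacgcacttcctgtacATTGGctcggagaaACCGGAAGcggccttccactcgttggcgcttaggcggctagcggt
Hadhb, chr5:30155003-30155302, plus strand: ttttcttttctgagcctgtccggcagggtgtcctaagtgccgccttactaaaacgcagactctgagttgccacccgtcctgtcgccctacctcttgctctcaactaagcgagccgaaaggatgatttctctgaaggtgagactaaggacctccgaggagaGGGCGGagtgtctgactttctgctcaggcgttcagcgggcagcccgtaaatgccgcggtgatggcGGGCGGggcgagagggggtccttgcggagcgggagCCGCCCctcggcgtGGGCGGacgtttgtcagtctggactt

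RefSeq promoters matched 34 of the 39 symbols, and a gene counted as holding a motif where any of its promoters did. The GC box was found in 25 of the 34 (73.5%, against 66.7% of the 11038 tested genes with a promoter). The CCAAT box was found in 17 of the 34, against 42.5% of the tested genes. The NRF1 core stood in the promoters of Ogdh, Sdhb, Acadm, Etfa and Etfdh (14.7%, against 5.68%), and the GABPA site in those of Idh3g, Dlst, Sdhb and Sdhd (11.8%, against 5.08%). The CREB site TGACGTCA was in 2 (5.9%, against 3.40%) and the estrogen-related receptor site TCAAGGTCA in Sdhd (2.9%, against 0.31%). A pair of AGGTCA repeats with 1 base between, the textbook PPAR element, had no match in the members and in 0.04% of the tested genes. These are matches of letters, in windows that hold no distal elements. The Dlat window held a single GC box and no NRF1, GABPA or CCAAT match, whereas that of Cpt1a held 3 GC boxes and a CCAAT box. In the Sdhb window an NRF1 core, a GABPA site, 3 GC boxes and a CCAAT box lie together.

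In the pyruvate dehydrogenase complex, the E1 component (Pdha1 and Pdhb) decarboxylates pyruvate, E2 (Dlat) carries the acetyl group on lipoyl arms, and E3 (Dld) reoxidises them. Dlat stood at 179, 187 and 161 CPM in the knockout libraries, against 117, 111 and 116 CPM in the wild-type libraries, where CPM is the read count scaled to a common, TMM-normalised library size. Every knockout library lay above every wild-type library. The means were 175.6 ± 13.6 CPM in knockout and 114.4 ± 3.32 CPM in wild type (SD, n = 3 each), a log2 fold change of 0.62 (SE 0.11, adjusted p = 0.0231 by edgeR's quasi-likelihood test). Dlat occupies chr9:50634633-50659780 of GRCm38, minus strand. Sdhd lies 30820 bases away on the same strand and was not called (−0.19, 95% interval −0.50 to 0.13).

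Dld stood at 273, 267 and 236 CPM in the knockout libraries, against 219, 187 and 215 CPM in the wild-type libraries. These groups did not overlap either, but Dld did not pass the test (log2 fold change of 0.32, 95% interval 0.03 to 0.61, edgeR adjusted p = 0.142). With GC and length trends taken out its value was 0.05. The E1 genes overlapped between genotypes. Pdha1 stood at 125, 102 and 127 CPM in knockout, against 79.9, 99.1 and 137 CPM in wild type (0.17, interval −0.27 to 0.61). Pdhb stood at 218, 215 and 182 CPM in knockout, against 209, 242 and 258 CPM in wild type (−0.21, interval −0.51 to 0.10). Pcx, which makes oxaloacetate from pyruvate, had 807 ± 49.7 CPM in knockout and 762 ± 19.3 CPM in wild type (SD, n = 3 each), a log2 fold change of 0.08 with an interval of −0.21 to 0.37. Among the 3 subunit types of the complex, E2 alone was called. Set against the E1 genes, its level gave a different picture for each. The log2 ratio of Dlat to Pdha1 was 0.51, 0.87 and 0.34 in knockout, against 0.55, 0.16 and −0.23 in wild type, and overlapped (exact two-sided permutation p = 0.3). That of Dlat to Pdhb, formed after the values were seen and not tested, was −0.28, −0.20 and −0.18 in knockout, against −0.84, −1.13 and −1.15 in wild type, without overlap.

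**Figure D2:**
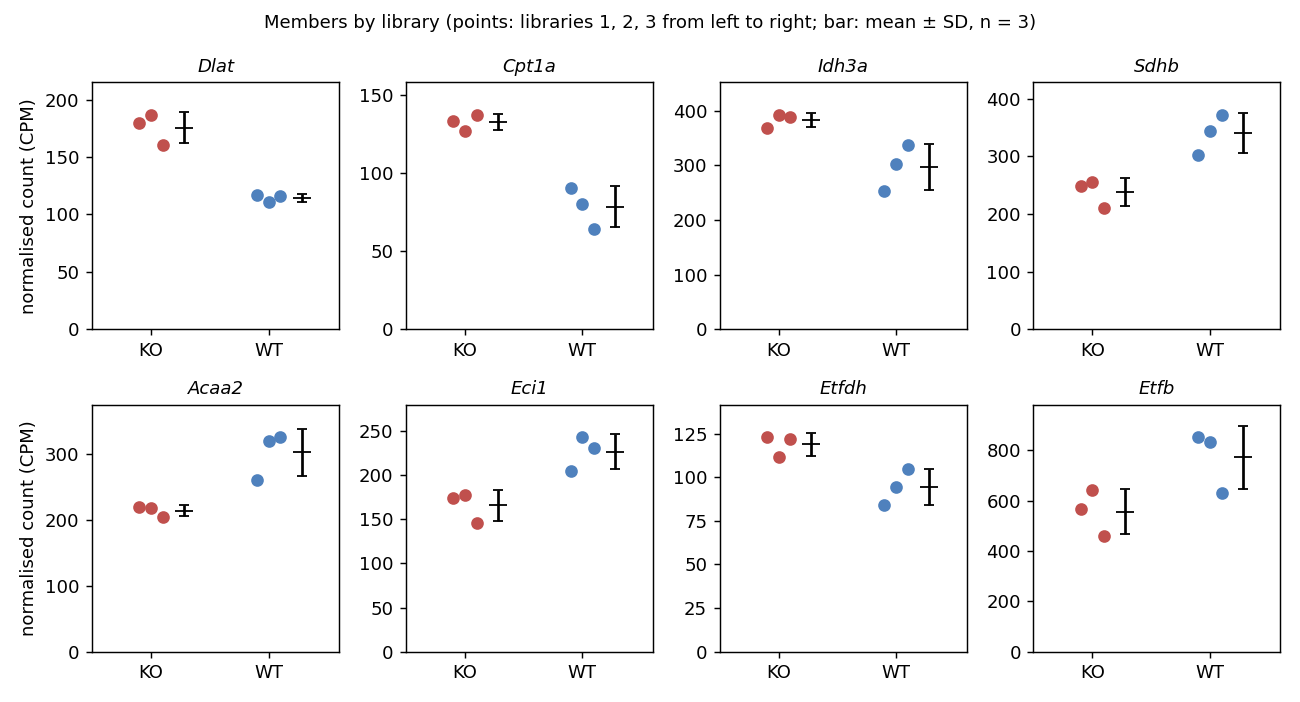
Normalised counts (CPM) of 8 members in each library, Mpst knockout left and wild type right, with mean ± SD (n = 3). Dlat, Cpt1a, Idh3a and Etfdh have all knockout points above the wild-type points, Sdhb, Acaa2 and Eci1 have them below, and Etfb overlaps.

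From citrate synthase to succinyl-CoA, none of 7 genes was called by edgeR, DESeq2 or limma-voom. At an unadjusted p under 0.05 (edgeR), 1 was higher and 1 lower, against 14.9% and 12.7% of all tested genes. The median log2 fold change of the 7 was −0.11. The 2 genes under that unadjusted p encode subunits of the same enzyme, NAD isocitrate dehydrogenase. Idh3a, its catalytic subunit, stood at 368, 393 and 389 CPM in the knockout libraries, against 253, 302 and 337 CPM in the wild-type libraries (0.36, SE 0.14, adjusted p = 0.132). Idh3g, the gamma subunit, stood at 179, 183 and 197 CPM in knockout, against 202, 244 and 255 CPM in wild type (−0.33, SE 0.13, adjusted p = 0.145). For both genes the genotypes did not overlap, in opposite directions, as was so for 17.8% (higher) and 15.5% (lower) of all tested genes. Idh3b, the third subunit, stood at −0.07 (interval −0.37 to 0.23). Without wild-type replicate 3, Idh3a passed the test (0.47), among 1434 genes called higher, against 669 with all libraries. With GC and length trends taken out it stood at 0.25 (edgeR adjusted p = 0.235).

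Idh2, the NADP-dependent isocitrate dehydrogenase, stood at 224, 207 and 192 CPM in knockout, against 184, 259 and 282 CPM in wild type, which overlapped (−0.22, interval −0.60 to 0.16). Cs, citrate synthase, the entry step of the cycle, averaged 514.8 ± 19.7 CPM in knockout and 526.3 ± 76.0 CPM in wild type (SD, n = 3 each), with a log2 fold change of −0.03 (interval −0.36 to 0.29). The E1 and E2 genes of 2-oxoglutarate dehydrogenase, Ogdh and Dlst, stood at −0.24 (interval −0.55 to 0.06) and −0.11 (interval −0.46 to 0.24). Dlst is the counterpart of Dlat in that complex and shares Dld with it. For Dlst the 3 knockout libraries, at 214, 209 and 220 CPM, lay within the wild-type range of 187, 230 and 276 CPM.

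The steps from succinyl-CoA to oxaloacetate held the most members lower in knockout, by count among steps of 3 to 9 genes. Of all tested genes, 12.7% were lower at an unadjusted p under 0.05 (edgeR) and 15.5% were lower without overlap. None of the 9 genes was called by edgeR, but 6 were lower at an unadjusted p under 0.05 and in the same 6 the genotypes did not overlap: Suclg1, Suclg2, Sdhb, Sdhc, Fh1 and Mdh2. DESeq2 called 1 of them, Sdhb, and limma-voom none. The median over the 9 was −0.28. The smallest p was that of Sdhb, the iron-sulfur subunit of succinate dehydrogenase, at 249, 255 and 210 CPM in the knockout libraries, against 303, 345 and 373 CPM in the wild-type libraries. Its log2 fold change was −0.52 (SE 0.14, 95% interval −0.83 to −0.20, edgeR adjusted p = 0.0572). It passed with DESeq2 and without wild-type replicate 3, among 889 and 1167 genes called lower, against 373 in the main fit. With GC and length trends taken out it stood at −0.35 (adjusted p = 0.158).

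None of the other subunits of succinate dehydrogenase, which is also complex II of the respiratory chain, passed the test. Sdhc, a membrane anchor, stood at 203, 221 and 218 CPM in knockout, against 249, 259 and 273 CPM in wild type (−0.28, adjusted p = 0.150). Sdhd, the other anchor, stood at −0.19 and Sdha, the flavoprotein that oxidises succinate, at −0.19 (intervals −0.50 to 0.13 and −0.55 to 0.18), and for both the genotypes overlapped. Sdhd turned to 0.031 with GC and length trends taken out, and Sdha was at −0.020 without wild-type replicate 3. In Sdha the 3 knockout libraries lay between 422 and 431 CPM, inside the wild-type range of 396 to 587 CPM. Fumarase (Fh1) averaged 151 ± 7.96 CPM in knockout and 184 ± 13.6 CPM in wild type (−0.28, adjusted p = 0.163), and malate dehydrogenase (Mdh2) 469.6 ± 33.1 CPM in knockout and 588.8 ± 45.7 CPM in wild type (−0.33, adjusted p = 0.150; SD, n = 3 each).

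Succinyl-CoA ligase pairs a shared alpha subunit (Suclg1) with a beta subunit that makes GTP (Suclg2) or ATP (Sucla2). Suclg2 stood at 31.6, 33.5 and 31.5 CPM in knockout, against 35.7, 39.3 and 54.5 CPM in wild type (−0.42, adjusted p = 0.137). Sucla2 stood at 274, 269 and 239 CPM in knockout, against 211, 244 and 251 CPM in wild type (0.15, adjusted p = 0.489). Suclg2 was lower in every knockout library, while Sucla2 overlapped. Without wild-type replicate 3, which was the highest for Suclg2, its log2 fold change was −0.21. The log2 ratio of Sucla2 to Suclg2, which library scaling cannot move, was 3.12, 3.01 and 2.92 in knockout, against 2.56, 2.63 and 2.21 in wild type. It was 0.55 higher in knockout without overlap. Per kilobase of exon, Sucla2 had 65.4 ± 4.83 CPM in knockout and 59.0 ± 5.33 CPM in wild type, and Suclg2 had 6.97 ± 0.241 CPM in knockout and 9.34 ± 2.15 CPM in wild type, so the ATP-forming subunit's transcript was the more abundant in both genotypes (SD, n = 3 each).

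The largest difference among the tested members was that of Cpt1a, 1 of the genes of fatty acid entry. Cpt1a, the outer-membrane carnitine palmitoyltransferase that malonyl-CoA inhibits, stood at 134, 127 and 138 CPM in the knockout libraries, against 90.3, 80.3 and 64.3 CPM in the wild-type libraries. All knockout libraries lay above all wild-type libraries. The means were 132.7 ± 5.33 CPM in knockout and 78.3 ± 13.1 CPM in wild type (SD, n = 3 each), a log2 fold change of 0.76 (SE 0.14, edgeR adjusted p = 0.0237). Cpt1a occupies chr19:3322334-3385733 of GRCm38, plus strand. Cpt2, which returns the acyl group to CoA at the inner membrane, stood at 220, 225 and 197 CPM in knockout, against 227, 246 and 228 CPM in wild type (−0.13, interval −0.39 to 0.14). The log2 ratio of Cpt1a to Cpt2 was −0.72, −0.83 and −0.52 in knockout, against −1.33, −1.62 and −1.83 in wild type, a difference of 0.90.

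Cpt1b, the isoform of muscle and brown fat, had 1, 1 and 3 reads in the knockout libraries, against 0, 0 and 1 in the wild-type libraries, too few to test or to form a ratio with Cpt1a. Of its exon bases in GENCODE M21, 81.4% also belong to Gm44502, a readthrough gene on the same strand that is listed at 0 in every library. How far this sharing lowered the count of Cpt1b was not tested.

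The calls of Dlat and Cpt1a depended on several libraries. Without knockout replicate 1, 2 or 3, or wild-type replicate 2, neither passed (edgeR adjusted p = 0.0624 to 0.120 for Dlat and 0.0769 to 0.115 for Cpt1a), in fits that called at most 41 genes higher and 5 lower of all tested. The log2 fold changes with each library left out ranged from 0.57 to 0.68 for Dlat and from 0.64 to 0.88 for Cpt1a. Knockout replicate 3 and wild-type replicate 2 held the most skeletal muscle transcripts, with 13 markers summing to 2368 and 986 CPM, against 50.8 to 154 CPM in the other libraries. Without these 2 libraries the values were 0.65 for Dlat and 0.75 for Cpt1a, with adjusted p of 0.268 and 0.294 in a fit of 2 against 2.

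The beta-oxidation spiral had no called gene among 9, with 3 lower and none higher at an unadjusted p under 0.05, while DESeq2 called 1 and limma-voom 0. The median was −0.29. The 3 genes were the dehydrogenases Acadvl and Acads and the thiolase Acaa2, and in all of them the genotypes did not overlap. Of all tested genes, 12.7% were lower at that p and 15.5% were lower without overlap. Acaa2, which cleaves off acetyl-CoA, stood at 220, 218 and 205 CPM in the knockout libraries, against 261, 320 and 326 CPM in the wild-type libraries. Its log2 fold change was −0.50 (SE 0.13, 95% interval −0.79 to −0.20, edgeR adjusted p = 0.0537), the smallest p among members that were lower. It passed with DESeq2, without wild-type replicate 1 and without wild-type replicate 3, among 889, 263 and 1167 genes called lower. With GC and length trends taken out it stood at −0.28.

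The acyl-CoA dehydrogenases differ in the chain length they oxidise. Acadvl, for very long chains, averaged 283 ± 11.01 CPM in knockout and 358 ± 35.0 CPM in wild type (−0.34, adjusted p = 0.126). Acads, for short chains, averaged 253 ± 31.4 CPM in knockout and 313 ± 10.95 CPM in wild type (−0.31, adjusted p = 0.174), and −0.08 with GC and length trends taken out. Between them in chain length, Acadl and Acadm had values of 0.09 (interval −0.19 to 0.38) and 0.11 (interval −0.22 to 0.44), with overlapping libraries. Of the exon bases of Acadvl, 42.9% also lie in exons of Dvl2 on the opposite strand, and the library kit does not mark strand.

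Hadha and Hadhb, which encode the 2 subunits of the mitochondrial trifunctional protein, are transcribed away from each other on chromosome 5, with RefSeq start sites 273 bases apart. Hadha stood at 222, 241 and 261 CPM in knockout, against 225, 241 and 262 CPM in wild type (−0.01, interval −0.29 to 0.27). Hadhb stood at 225, 228 and 219 CPM in knockout, against 182, 220 and 193 CPM in wild type (0.17, interval −0.10 to 0.45). The log2 ratio of Hadha to Hadhb was −0.02, 0.08 and 0.26 in knockout, against 0.31, 0.14 and 0.44 in wild type, and overlapped. Hadh and Echs1, the dehydrogenase and hydratase of shorter chains, stood at −0.29 (interval −0.63 to 0.06) and −0.32 (interval −0.67 to 0.04).

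The auxiliary enzymes that let unsaturated fatty acids pass through the spiral were all below 0, with a median of −0.27. Of the 3, edgeR and limma-voom called none and DESeq2 called Eci1. Eci1 alone was lower at an unadjusted p under 0.05 (edgeR), against 12.7% of all tested genes. Eci1, an enoyl-CoA isomerase, stood at 174, 178 and 146 CPM in the knockout libraries, against 205, 243 and 231 CPM in the wild-type libraries. Those groups did not overlap (−0.45, SE 0.13, edgeR adjusted p = 0.0712), and the gene passed with DESeq2. Eci2, the related isomerase, averaged 118 ± 10.4 CPM in knockout and 138 ± 8.19 CPM in wild type (−0.23, adjusted p = 0.248). Decr1, the 2,4-dienoyl-CoA reductase, averaged 454 ± 47.0 CPM in knockout and 548 ± 71.3 CPM in wild type (−0.27, adjusted p = 0.274), and its value was −0.44 with GC and length trends taken out (SD, n = 3 each).

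Electrons from the acyl-CoA dehydrogenases reach ubiquinone through the flavoprotein Etfa–Etfb and its oxidoreductase Etfdh. None of the 3 genes was called by edgeR, DESeq2 or limma-voom. At an unadjusted p under 0.05 (edgeR), 1 was higher and 1 lower, against 14.9% and 12.7% of all tested genes. Etfdh stood at 123, 112 and 122 CPM in the knockout libraries, against 84.1, 94.6 and 105 CPM in the wild-type libraries. It was higher in every knockout library (0.33, SE 0.12, edgeR adjusted p = 0.120) and passed without wild-type replicate 3, among 1434 genes called higher. With GC and length trends taken out Etfdh stood at 0.21 (edgeR adjusted p = 0.264). Etfb stood at 568, 641 and 461 CPM in knockout, against 854, 835 and 629 CPM in wild type, where knockout replicate 2 overlapped wild-type replicate 3 (−0.47, SE 0.18, adjusted p = 0.129). Without wild-type replicate 3 Etfb passed (−0.60, edgeR adjusted p = 0.0252), among 1167 genes called lower. With GC and length trends taken out Etfb stood at −0.08, and 58.2% of its exon bases are shared with other annotated genes on the same strand. Etfa stood at 431, 441 and 395 CPM in knockout, against 404, 451 and 465 CPM in wild type (−0.06, interval −0.35 to 0.23). The log2 ratio of Etfa to Etfb was −0.40, −0.54 and −0.22 in knockout, against −1.08, −0.89 and −0.44 in wild type, and overlapped.

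**Figure D3:**
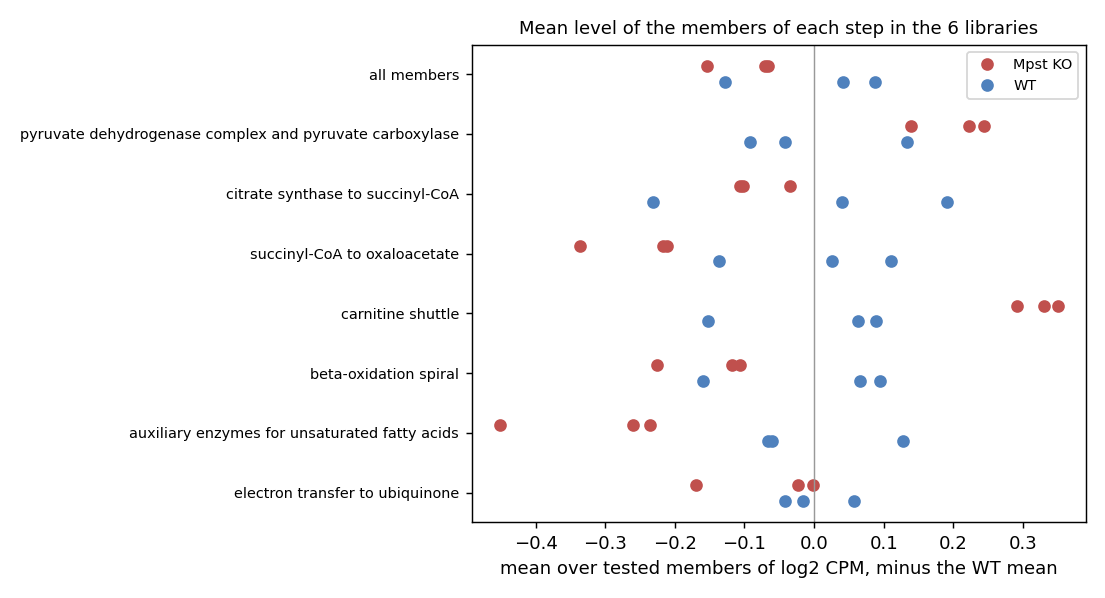
Mean over the tested members of each step of log2 CPM, minus the wild-type mean, for each library, with Mpst knockout above wild type in each row. The carnitine shuttle (Cpt1a and Cpt2) lies at 0.29 to 0.35 in knockout, against −0.15 to 0.09 in wild type, and the steps from succinyl-CoA to oxaloacetate at −0.34 to −0.21 in knockout, against −0.14 to 0.11 in wild type.

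Averaged over steps, the members did not move as a block. Mean log2 values relative to wild type were 0.24, 0.22 and 0.14 in the knockout libraries for the pyruvate steps, against −0.09, −0.04 and 0.13 in the wild-type libraries. For the steps from succinyl-CoA to oxaloacetate they were −0.22, −0.21 and −0.34 in knockout, against −0.14, 0.03 and 0.11 in wild type. Neither group of steps overlapped between genotypes, in opposite directions, although in the pyruvate steps knockout replicate 3 and wild-type replicate 3 were nearly level. The pyruvate mean includes Dlat, called at 0.62, while Pdha1, Dld and Pcx stood at 0.17, 0.32 and 0.08 and Pdhb at −0.21. With GC and length trends taken out Pdha1, Dld and Pcx stood at 0.04, 0.05 and 0.18, and Dlat at 0.51. The auxiliary enzymes (lower) did not overlap either. The mean of the carnitine shuttle was higher in every knockout library, but it is a mean of Cpt1a and Cpt2 alone, and Cpt2 was lower in every knockout library than in any wild-type library, by an amount that did not pass the test. Over all 38 members the knockout libraries stood at −0.07, −0.07 and −0.15, against −0.13, 0.04 and 0.09 in wild type, and overlapped. Over these 38 the wild-type libraries were the more spread, with replicate 1 the lowest and replicate 3 the highest.

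Ratios within a library cancel its scaling, and 8 were formed between members that act together or in parallel. Dlat and Cpt1a were chosen for them with earlier results of these data known, so their ratios are no independent test. The largest difference was that of Cpt1a to Cpt2, given above. The log2 ratio of Idh2 to Idh3a was −0.72, −0.92 and −1.02 in the knockout libraries, against −0.46, −0.22 and −0.26 in the wild-type libraries, 0.57 lower in knockout (−0.57). Those ratios, with Sucla2 to Suclg2, were the ones without overlap between genotypes. Each had an exact two-sided permutation p of 0.1, the smallest that 3 against 3 libraries can give, and 0.267 after Benjamini-Hochberg adjustment over the 8 ratios. The ratio of Pdhb to Pdha1 differed by −0.40 and that of Pcx to Pdha1 by −0.12, both with overlap. Such ratios do not cancel trends with GC content or exon length. With these trends taken out, Idh2 and Idh3a had log2 fold changes of −0.07 and 0.25. Those of Cpt1a and Cpt2 were 0.72 and −0.02, and those of Sucla2 and Suclg2 were −0.05 and −0.60.

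**Figure D4:**
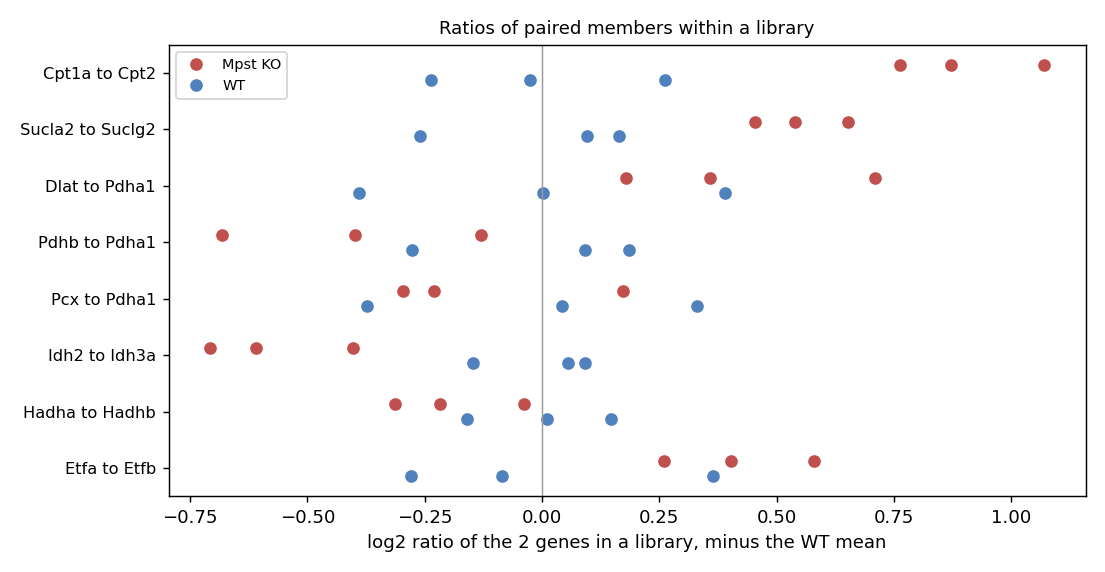
Log2 ratio of 2 members within each library, minus the wild-type mean, for 8 pairs, with Mpst knockout above wild type in each row. The knockout points of Cpt1a to Cpt2 and Sucla2 to Suclg2 lie right of the wild-type points, those of Idh2 to Idh3a lie left, and the other pairs overlap.

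Levels between members were compared as CPM per kilobase of annotated exon. Etfb was the highest, at 478 ± 78.0 in knockout and 664 ± 107 in wild type, ahead of Acadl (243 ± 5.90 in knockout and 228 ± 18.4 in wild type) and Etfa (230.1 ± 13.2 in knockout and 239.8 ± 17.5 in wild type; SD, n = 3 each). In wild type Acadl and Etfa lay within each other's spread, while in knockout Acadl lay within that of Etfa but not the reverse. Among the tested members the lowest were Suclg2, Etfdh (15.8 ± 0.856 in knockout and 12.6 ± 1.37 in wild type) and Cpt1a (17.4 ± 0.697 in knockout and 10.2 ± 1.72 in wild type). Cpt1a thus stood below Cpt2, at 89.6 ± 6.22 in knockout and 97.7 ± 4.56 in wild type. Exon length counts every annotated exon of a gene and lowers the value of genes with unused exons.

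Among the members, lower fold changes went with higher GC content and shorter exons. Across 38 genes, the log2 fold change had a Pearson r of −0.44 and a Spearman rho of −0.53 with transcript GC content, and 0.45 and 0.46 with log2 exon length. Across 13933 tested genes the values were −0.28 and −0.32 with GC, and 0.21 and 0.26 with length. Genes share libraries and are no replicates, so these are descriptions. GC-poor Dld (40.6% GC) and GC-rich Etfb (57.1% GC) moved most when the trends were taken out, to 0.05 and −0.08.

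Other genes of the same pathways were read from lists chosen by function, also with earlier results of these data known. Of 12 genes of pyruvate entry and pyruvate dehydrogenase regulation, 1 fell and none rose, with a median of −0.12. Of all tested genes 2.65% were called lower and 4.76% higher. The one that fell was Ldhb, a lactate dehydrogenase subunit, with 69.1 ± 3.44 CPM in knockout and 115 ± 18.5 CPM in wild type (SD, n = 3 each; −0.74, adjusted p = 0.0241). The kinases that switch pyruvate dehydrogenase off, Pdk1 to Pdk4, had values between −0.50 and 0.13, and Pdhx, the E3-binding subunit, 0.07, none of them called. At an unadjusted p under 0.05 (edgeR), 14.9% of all tested genes were higher and 12.7% lower. Of 18 further TCA cycle, counterpart and anaplerotic genes, none was called by edgeR. At that unadjusted p, 3 were higher and 1 lower, and the median was −0.09. Among them Pck1, which makes phosphoenolpyruvate for glycerol synthesis, stood at −1.10 (adjusted p = 0.248), with 551, 500.5 and 834 CPM in knockout, against 453, 1148 and 2434 CPM in wild type.

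Of 20 further genes of fatty acid oxidation, 1 fell (against 2.65% of all tested genes) and none rose (against 4.76%), with a median of −0.25. It was Acad12, an acyl-CoA dehydrogenase family member, with 10.1 ± 0.170 CPM in knockout and 15.7 ± 1.52 CPM in wild type (SD, n = 3 each; −0.65, adjusted p = 0.0377). Acsl1, which activates long-chain fatty acids ahead of Cpt1a, stood at 1964, 2251 and 2140 CPM in knockout, against 1708, 1513 and 1633 CPM in wild type. The genotypes did not overlap, but it was not called (0.39, adjusted p = 0.123). Slc25a20, the carnitine carrier between Cpt1a and Cpt2, stood at 0.17 (adjusted p = 0.447), and Acacb, whose product malonyl-CoA inhibits Cpt1a, at −0.81 (adjusted p = 0.187).

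Summed markers of several cell types differed between genotypes in the same libraries. The sums for adipocytes, skeletal muscle and mammary epithelium overlapped, although most single adipocyte markers were below 0. Over all tested genes, 4.76% were called higher and 2.65% lower. The 13 macrophage markers summed to 2311 to 2543 CPM in knockout, against 796 to 1603 CPM in wild type, and 7 of them rose. The 10 adipocyte markers summed to 49383 to 61472 CPM in knockout, against 57958 to 72094 CPM in wild type, which overlapped, and 1 of them, Lipe, fell. Fabp4 made up the largest part of that sum. Log2 fold changes were below 0 for 8 of the 10 and above 0 for Lep and Lpl (0.22 and 0.08, not called), with a median of −0.35. Lower without overlap were 5 of the 10 (against 15.5% of all tested genes), and 0 were higher without overlap (against 17.8%). At an unadjusted p under 0.05 (edgeR), 3 were lower (against 12.7%). Of 7 progenitor and fibroblast markers 2 rose, with sums of 4187 to 5259 CPM in knockout and 2718 to 3691 CPM in wild type. Those 2, Col3a1 and Dcn, with Col1a1 made up most of the sum, while Pi16 and Dpp4, 2 of its progenitor markers, had log2 fold changes of −2.10 and −0.46 and were not called (edgeR adjusted p = 0.109 and 0.416). Sums of 5 endothelial markers were 846 to 1018 CPM in knockout and 712 to 757 CPM in wild type, and of 7 lymphocyte markers 10.49 to 24.0 CPM in knockout and 6.99 to 9.10 CPM in wild type, with none called. The 7 thermogenic markers summed to 81.4 to 123 CPM in knockout and 144 to 213 CPM in wild type, and 1, Cox8b, fell. That list was split: Cox8b and Cidea made up most of the sum, while Ucp1, Elovl3 and Dio2, none above 4.14 CPM in any library and none called, were higher in every knockout library than in any wild-type library (log2 fold changes of 1.78, 2.13 and 0.80). Of 8 mammary epithelial markers, Krt14, Csn2, Csn3 and Wap were at 0 in every library and the 8 summed to less than 1 CPM. The part of these cell types in the differences of Dlat, Cpt1a and the other members was not tested.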

How the data were processed

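Per the labels' protocols, RNA was extracted with TRIzol, TruSeq RNA v2 libraries, which carry no strand information, were prepared, and single-end reads of 75 bp were sequenced. The submitters' processing notes name HISAT2 2.1.0, HTSeq 0.13.5, DESeq2 1.26 and mm10. For the counting, neither annotation nor settings are given in the sources used here. What the authors deposited are raw, whole-number counts for each gene. Reads in no feature, left out with the other summary lines, were 8.85% to 14.7% of the reads in genes, in no feature or ambiguous. Depth was 8054560, 22458630 and 21565825 counts in knockout replicates 1 to 3 and 17394489, 17793003 and 21576075 in wild-type replicates 1 to 3, so precision is lowest in knockout replicate 1. Replicate pairs all differed beyond sampling noise.

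Differential expression was tested with edgeR 4.0.16 (R 4.3.3) on all genes kept by filterByExpr (TMM scaling, robust quasi-likelihood F test, genotype as the sole term, Benjamini-Hochberg adjustment over all tested genes). The fit was run on counts simulated from its own means and dispersions, with planted changes larger than that of any tested member. That run cannot show how well changes as small as those of the members are found. The SE is the log2 fold change over the square root of F. Positions, GC and exon lengths came from GENCODE M21 (GRCm38) by symbol, and promoters from RefSeq. Members and lists, and Dlat and Cpt1a for the ratios, were chosen with earlier results of these data known. Named genes were the called members, the smallest p of each step and the genes of the ratios, and of the other lists the called genes. Others were named after their values were seen. Alternatives were other scalings, DESeq2 1.42.0, limma-voom (limma 3.58.1), other filters, a replicate block, no robust estimation, each library left out and, added after seeing the data, the muscle and the GC and length settings.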

Additional observations from a re-analysis of the deposited data

How the results depend on the processing

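The median of the members stayed below 0 in all 16 alternatives run, from −0.26 to −0.13 with each library left out and −0.081 with GC and length trends taken out. With each library left out, the count of members called ranged from 0 to 4 higher and from 0 to 3 lower. Over all genes the same fits called 0 to 1434 higher and 1 to 1167 lower, against 669 and 373 with all libraries. Without the 2 libraries highest in muscle markers 0 members were higher, among 0 genes higher and 1 lower, and with GC and length trends taken out 397 genes were higher and 220 lower. DESeq2 called 3 members lower, and DESeq2 called 1068 genes higher and 889 lower. Same-numbered libraries were not shown to be paired (correlation of their deviations 0.17, −0.10 and 0.30, and not every library correlated best with its own number), and with the replicate block 3 members were higher and 4 lower, among 1387 and 1289 genes.

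Directions turned for some members, not all of them near 0. Hadha was at 0.0092 in genes of at least 10 CPM, and Etfa at 0.0046 without the muscle-high libraries. With GC and length trends taken out, Sucla2 turned from 0.15 in the main fit to −0.054, and Sdhd from −0.19 to 0.031. With each library left out, Hadha ranged from −0.071 to 0.054, Cs from −0.11 to 0.094, Idh3b from −0.15 to 0.0093 and Dlst from −0.23 to 0.046. The cause was not tested. The ratio of Cpt1a to Cpt1b could not be formed without a pseudocount, since Cpt1b had 0 reads in 2 libraries, and with at most 3 reads in any library it could not be tested.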

Other observations

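Of 4 genes that make or attach lipoate, the cofactor of Dlat and Dlst, edgeR called none, and none had an unadjusted p under 0.05. Lias, lipoyl synthase, stood at 64.1, 69.8 and 57.9 CPM in knockout, against 73.9, 82.7 and 73.0 CPM in wild type (log2 fold change −0.26, edgeR adjusted p = 0.196), without overlap between genotypes. Lipt1, Lipt2 and Gcsh had values from −0.09 to −0.08. Of 11 transcriptional regulators of oxidative genes, 1 rose (against 4.76% of all tested genes) and none fell (against 2.65%). It was Gabpa, a subunit of the nuclear factor whose site was searched in the promoters, with 35.7, 38.0 and 46.9 CPM in knockout, against 18.1, 19.1 and 28.7 CPM in wild type (0.87, adjusted p = 0.0368). The members with that site, Idh3g, Dlst, Sdhb and Sdhd, had log2 fold changes from −0.52 to −0.11. Ppargc1a, Esrra and Nrf1 had values of −0.29, 0.05 and −0.08, with adjusted p from 0.679 to 0.842. Whether the level of Gabpa bears on any member was not tested.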
